A study of Canis lupus familiaris with 6 samples.

Results

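The integrated stress response factors examined here are 10 genes, ATF3, ATF4, ATF5, DDIT3, CEBPB, CEBPG, TRIB3, CHAC1, FGF21 and SESN2. They were chosen by name for their place in one pathway, and were chosen from earlier results of the comparison described here, so that their differences between the groups are a description. Calls of a fit on these genes are counted only beside the share of all genes called, and are not tests of the members. Of the 10 genes, 9 were found among the 35993 genes of the gene table, and the same 9 passed the filter on low counts together with 14708 genes in all. CHAC1, which degrades glutathione, was found neither by its symbol nor by its gene identifier and was not analysed here. RNA-Seq was performed on CPEK cells, a line of canine progenitor epidermal keratinocytes of genotype WT. In the dCAMP group (3 libraries) the cells were exposed directly to cold atmospheric microwave plasma (CAMP) for 30 s. In the gas group (3 libraries) they were exposed to gas without plasma for the same time. Plasma was made from argon as the carrier gas. Both groups were then kept for 15 min, given fresh complete medium and cultured for 24 h before RNA was collected, so that a single late time point was measured. All libraries came from 1 cell line, and no label says that the cultures within a group were separate, so that p-values measure only the spread between these libraries.

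In the integrated stress response, kinases that sense amino acid shortage, misfolded protein in the endoplasmic reticulum, heme shortage, mitochondrial stress or double-stranded RNA phosphorylate the translation factor eIF2. General protein synthesis then falls, while the mRNA of the transcription factor ATF4 is translated better, and ATF4 with its partners of the ATF and C/EBP families switches on genes of amino acid supply, redox balance, growth arrest and, in prolonged stress, cell death. ATF4 is therefore controlled largely at the level of translation, and an mRNA level does not measure its protein.

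The libraries held 43084921 to 54082634 counts on genes. The gas libraries stood further from one another than the dCAMP libraries did: mitochondrially encoded genes took 0.509, 1.42 and 2.35% of the counts in gas libraries 1, 2 and 3, against 2.19 to 2.23% in the dCAMP libraries. The first principal component, which held 87.1% of the variance, placed gas library 3 at 17.9, beside the dCAMP libraries at 22.3 to 26, and gas library 1 at -73.5. The part of this spread in the results was not tested, and values are therefore given for each library. The summed level of 12 keratinocyte markers was 19568 to 24501 FPKM (fragments mapped, scaled for transcript length and library size) in gas and 18319 to 19446 FPKM in dCAMP. Most of this sum came from KRT5 and KRT14, with means of 10287 and 9960 FPKM in gas and 8892 and 8057 FPKM in dCAMP. Of the 11 tested markers, 6 had a higher and 5 a lower mean in dCAMP. Of 2 keratins of differentiated cells among them, KRT1 was at 0, whereas KRT10 had a mean of 12.2 FPKM in gas and 12.7 FPKM in dCAMP. Summed markers of other cells were low in both groups, at 0.282 to 0.395 and 0.252 to 0.318 FPKM for 6 fibroblast genes, with PDGFRB, DCN and LUM at 0. They were 0.12 to 0.409 and 0.243 to 0.689 FPKM for 5 melanocyte genes (TYR, DCT and TYRP1 at 0), 0.68 to 1.07 and 0.664 to 1.36 FPKM for 5 immune genes (PTPRC and CD3E at 0), and 2 to 2.39 and 2.53 to 3.13 FPKM for 4 endothelial genes (PECAM1 at 0). Among the endothelial genes VWF had a mean of 1.28 FPKM in gas and 1.58 FPKM in dCAMP.

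ATF4, the central transcription factor of the response, was lower in every dCAMP library than in every gas library. Its level was 655, 595 and 543 CPM (counts scaled to a common library size) in gas libraries 1, 2 and 3, and 425, 339 and 444 CPM in dCAMP libraries 1, 2 and 3. The group means were 597 ± 55.9 and 403 ± 56.2 CPM (SD, n = 3 each), which is 1.48-fold higher in gas, and the log2 fold change of dCAMP over gas was -0.57 (SE 0.13). The lowest gas library still held 1.22 times the level of the highest dCAMP library. ATF4 (gene 474503) lies on chromosome 10 of CanFam3.1 between 25528880 and 25531018, and its counts came from 1 annotated transcript. In bulk RNA, fewer cells expressing a gene and less of its RNA per cell cannot be told apart, here or for the other genes.

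**Figure D1:**
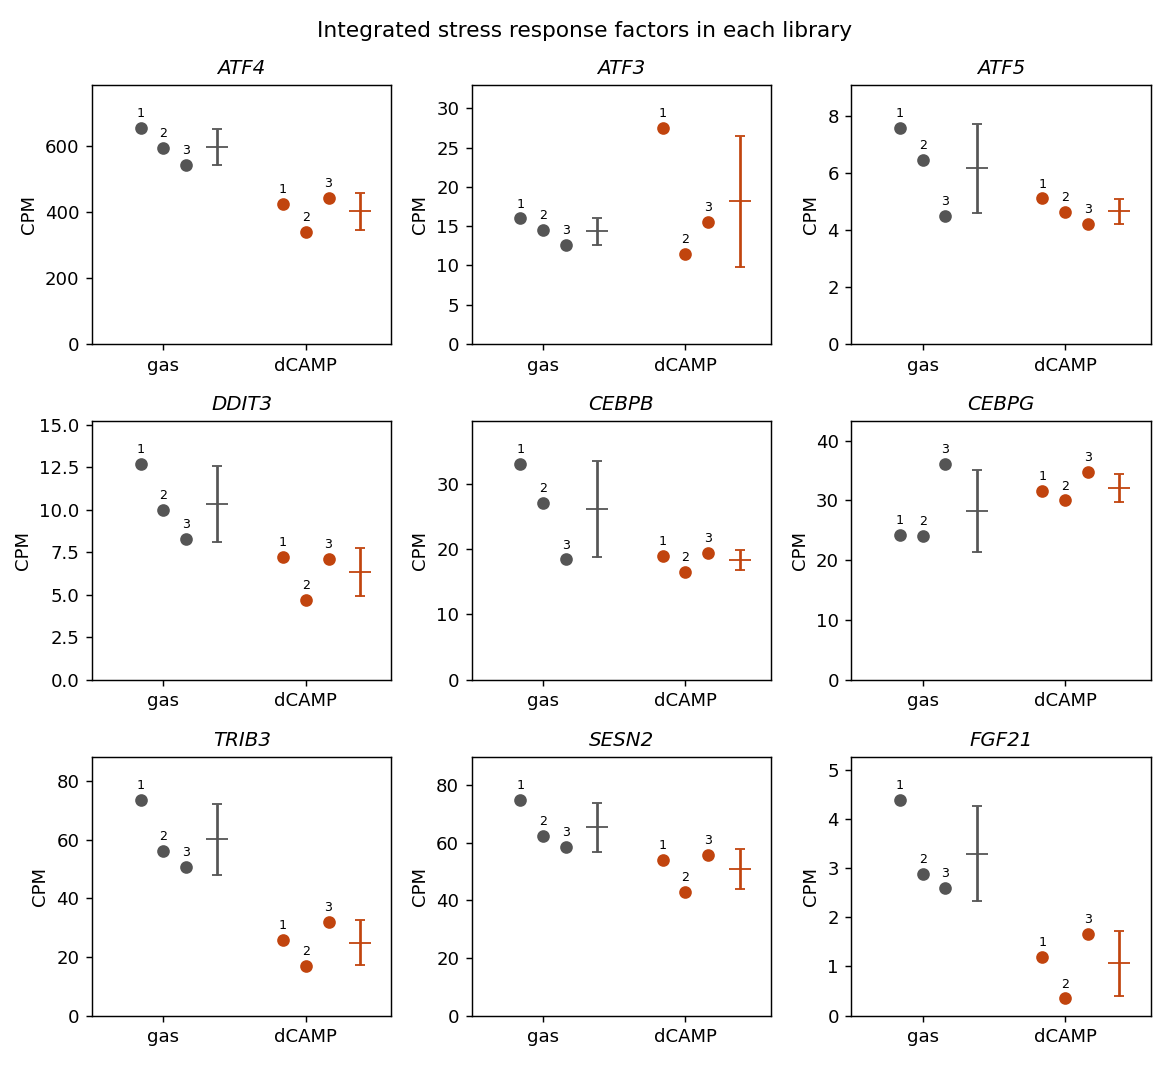
CPM of the 9 genes, 1 panel each, in the 3 gas and the 3 dCAMP libraries; each numbered point is 1 library, and the horizontal mark and bar are the group mean and SD. The dCAMP points lie wholly below the gas points for ATF4, DDIT3, TRIB3, SESN2 and FGF21, and the groups overlap for ATF3, ATF5, CEBPB and CEBPG.

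DDIT3, also known as CHOP, is the C/EBP-type factor linked to cell death in prolonged stress. By mean FPKM over all libraries DDIT3 ranked at percentile 53 of all tested genes, and it was lower in dCAMP. It was measured at 12.7, 10 and 8.28 CPM in gas and at 7.25, 4.69 and 7.1 CPM in dCAMP. The groups did not overlap, with the lowest gas library at 1.14 times the highest dCAMP library. The means were 10.3 ± 2.24 and 6.35 ± 1.44 CPM (SD, n = 3 each), or 1.62-fold higher in gas, with a log2 fold change of -0.70 (SE 0.23). DDIT3 (gene 607439) lies on chromosome 10 between 1606693 and 1612410 and overlaps MARS and MBD6 there. How reads on overlapping genes were counted is not given in the sources used here, so its level carries that uncertainty.

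CEBPB and ATF5, which bind DNA with ATF4-type partners, showed lower dCAMP means but overlapping groups. CEBPB was 33, 27.1 and 18.4 CPM in gas and 18.9, 16.5 and 19.4 CPM in dCAMP, so that gas library 3 lay among the dCAMP libraries while gas libraries 1 and 2 lay above them. Its log2 fold change was -0.52 (SE 0.22). ATF5 was 7.58, 6.46 and 4.49 CPM in gas and 5.11, 4.64 and 4.21 CPM in dCAMP, again with gas library 3 among the dCAMP libraries, and its log2 fold change was -0.40 (SE 0.21). CEBPB (gene 100856480) lies on chromosome 24 between 36661294 and 36663162. ATF5 (gene 100688667) lies on chromosome 1 between 106631711 and 106636477, where it overlaps NUP62 and IL4I1, with the same uncertainty in its counts.

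ATF3 and CEBPG were the exceptions, with higher means in dCAMP. ATF3, an early stress-induced factor that can repress transcription, was 16, 14.5 and 12.6 CPM in gas and 27.5, 11.5 and 15.5 CPM in dCAMP. Its higher mean came from dCAMP library 1 alone, since dCAMP library 2 was the lowest of all 6 libraries. The log2 fold change was 0.34 (SE 0.32) with all libraries and -0.09 without dCAMP library 1. CEBPG, a C/EBP factor without an activation domain that pairs with ATF4, was 24.3, 24.1 and 36.1 CPM in gas and 31.6, 30 and 34.7 CPM in dCAMP. Gas library 3 was the highest of all and the other gas libraries were the lowest, and the log2 fold change was 0.19 (SE 0.18). ATF3 (gene 612911) lies on chromosome 7 between 10784445 and 10795285, and CEBPG (gene 100686458) on chromosome 1 between 118777110 and 118784397.

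Among the effectors, TRIB3, a pseudokinase induced by ATF4 and DDIT3 that feeds back on ATF4, had one of the 2 largest differences of the set. It was measured at 73.7, 56.1 and 50.7 CPM in gas and at 25.8, 16.9 and 32 CPM in dCAMP. Every dCAMP library lay below every gas library, the lowest of which held 1.58 times the highest dCAMP level. The means were 60.2 ± 12 and 24.9 ± 7.63 CPM (SD, n = 3 each), or 2.41-fold higher in gas, with a log2 fold change of -1.27 (SE 0.26). TRIB3 (gene 485819) lies on chromosome 24 between 20450281 and 20461141.

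FGF21, a secreted metabolic hormone induced by ATF4 in stressed cells, was rare and had the largest fold difference. It was measured at 4.39, 2.89 and 2.6 CPM in gas and at 1.19, 0.35 and 1.66 CPM in dCAMP. These levels rest on 203, 152 and 138 counts in gas and on 55, 15 and 75 counts in dCAMP, so counting error weighs more on FGF21 than on the other genes. The groups did not overlap, the lowest gas level being 1.57 times the highest dCAMP level. The means were 3.29 ± 0.958 and 1.07 ± 0.663 CPM (SD, n = 3 each), a 3-fold difference with a log2 fold change of -1.58 (SE 0.51). Its locus on chromosome 1 (gene 484395, 107571449 to 107576630) overlaps FUT1.

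SESN2, a sestrin that restrains mTORC1 when amino acids are short, differed least among the genes whose groups were separate. It was 74.9, 62.4 and 58.6 CPM in gas and 54, 42.9 and 55.9 CPM in dCAMP, and the lowest gas library exceeded the highest dCAMP library by a factor of only 1.05. The means were 65.3 ± 8.51 and 50.9 ± 7.04 CPM (SD, n = 3 each), with a log2 fold change of -0.36 (SE 0.15). SESN2 (gene 487335) lies on chromosome 2 between 72151464 and 72168861.

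**Figure D2:**
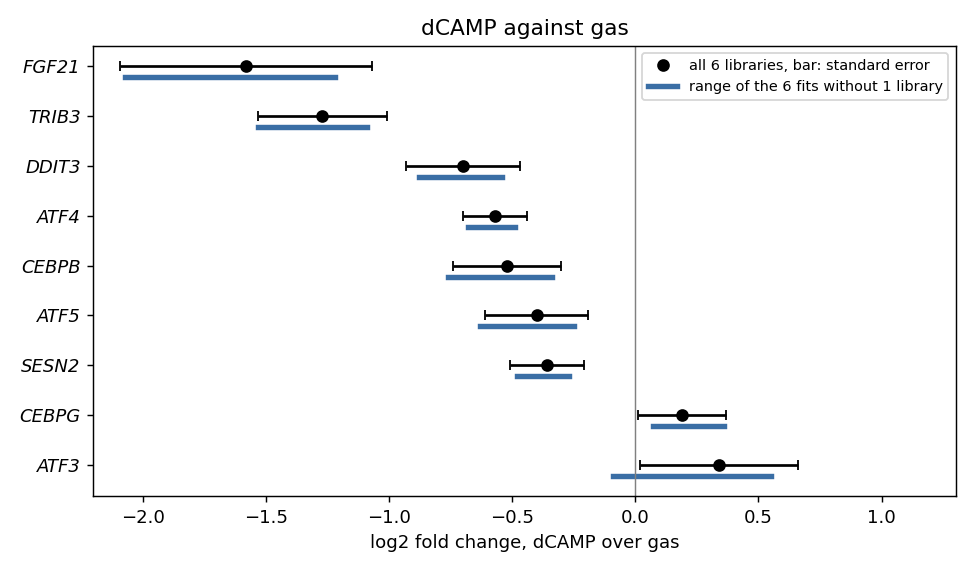
Log2 fold change of dCAMP over gas for each gene; black points and bars are the fit of all 6 libraries with its standard error, and blue lines span the 6 fits that each leave out 1 library. FGF21 and TRIB3 lie furthest to the left, at -1.58 and -1.27, and the blue line of ATF3 alone crosses 0.

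Set against all genes, the count of members depended on how a difference was called. No gene of 14708 (0%) and none of the 9 members had an adjusted p under 0.05 in edgeR's quasi-likelihood test, adjusted by the Benjamini-Hochberg method, although 2039 and 1001 genes had an unadjusted p under 0.05 in the lower and higher direction. DESeq2 called 301 genes at an adjusted p under 0.05, and limma's voom with sample quality weights called 8944. At an unadjusted p under 0.05, 4 of the 9 members (ATF4, DDIT3, TRIB3 and FGF21) were lower in dCAMP where 13.9% of all tested genes were, and no member was higher where 6.81% were. When a 2-fold change was also required, TRIB3 and FGF21 were among the 20 genes (0.136%) that were lower in dCAMP. No member was among the 141 genes (0.959%) that were higher by the same rule. All 3 dCAMP libraries lay below all 3 gas libraries for 5 members and for 20.9% of all tested genes, and above them for no member and 19% of genes. Since the members were chosen with this comparison in view, nothing is read from these counts.

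Other fits of the same libraries called more members at an adjusted p under 0.05. With DESeq2, ATF4 (DESeq2 adjusted p = 0.0305) and TRIB3 (DESeq2 adjusted p = 0.00508) were lower in dCAMP by that rule, where 1.98% of genes were. With DESeq2 on genes that had at least 1 count in every library, TRIB3 was the only member lower by that rule, where 0.75% of genes were. There ATF4 had a DESeq2 adjusted p of 0.052. With voom and sample quality weights the members lower in dCAMP by that rule were ATF4, ATF5, DDIT3, CEBPB, TRIB3, SESN2 and FGF21, where 28.2% of all tested genes were, and CEBPG was higher, where 32.6% were. Without gas library 3 in edgeR the lower members were ATF4, ATF5, DDIT3, CEBPB and TRIB3, beside 18.1% of genes, and CEBPG was higher, beside 15% of genes. The median length implied by the counts and FPKM values was 1960 bases for the members and 2512 bases for all tested genes, and with a correction for length in the fit the log2 fold change was -0.54 for ATF4 and -1.26 for TRIB3. That of SESN2 moved from -0.36 to -0.50 with this correction.

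The members were graded within the gas group. Gas library 1 was the highest and gas library 3 the lowest of the 3 gas libraries for 8 of the 9 members, all but CEBPG, and for 36.3% of all tested genes. Against the dCAMP mean, TRIB3 was higher by 1.57, 1.17 and 1.03 on the log2 scale in gas libraries 1, 2 and 3, and FGF21 by 2.04, 1.44 and 1.29. ATF4 was higher by 0.70, 0.56 and 0.43, and DDIT3 by 1.0, 0.66 and 0.38. These 4 genes were thus above the dCAMP mean in each gas library, including gas library 3, which lay near the dCAMP libraries over all genes. For CEBPB the log2 differences were 0.85, 0.57 and 0.01, and for ATF5 they were 0.70, 0.47 and -0.05, so that in gas library 3 neither stood apart from dCAMP. In each gas library 7 of the 9 members were above the dCAMP mean, and their median log2 ratio was 0.70, 0.56 and 0.20, beside -0.02, -0.02 and -0.01 over all tested genes. Within dCAMP, library 2 was the lowest for 8 of the 9 members, all but ATF5, and for 34.9% of all tested genes.

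**Figure D3:**
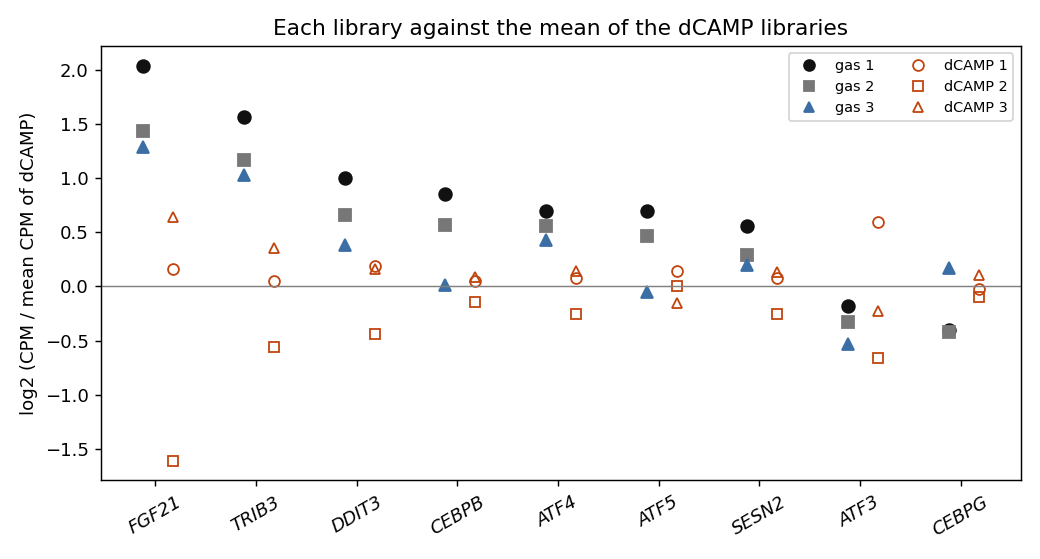
Log2 ratio of each library's CPM to the mean CPM of the dCAMP libraries for each gene, with filled markers for the 3 gas and open markers for the 3 dCAMP libraries and a line at 0. TRIB3, FGF21, DDIT3, ATF4 and SESN2 are above 0 in all 3 gas libraries, while CEBPB and ATF5 reach 0 in gas library 3 and ATF3 is below 0 in all 3.

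Dividing each gene by ATF4 in the same library showed which members differed more than ATF4 did. TRIB3 had 11.3, 9.44 and 9.34 counts per 100 ATF4 counts in gas and 6.08, 4.98 and 7.22 in dCAMP. FGF21 had 0.67, 0.486 and 0.479 per 100 in gas and 0.279, 0.103 and 0.374 in dCAMP, so that both effectors stayed lower in every dCAMP library. DDIT3 differed about as much as ATF4, with 1.94, 1.69 and 1.52 per 100 in gas and 1.71, 1.38 and 1.6 in dCAMP, and the groups overlapped. SESN2 went the other way, at 11.4, 10.5 and 10.8 per 100 in gas and 12.7, 12.7 and 12.6 in dCAMP, because it differed less between the groups than ATF4. CEBPG and ATF3 were likewise above gas in every dCAMP library on this scale, while CEBPB and ATF5 overlapped. The denominator itself differed between the groups, so these ratios compare differences and not levels.

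**Figure D4:**
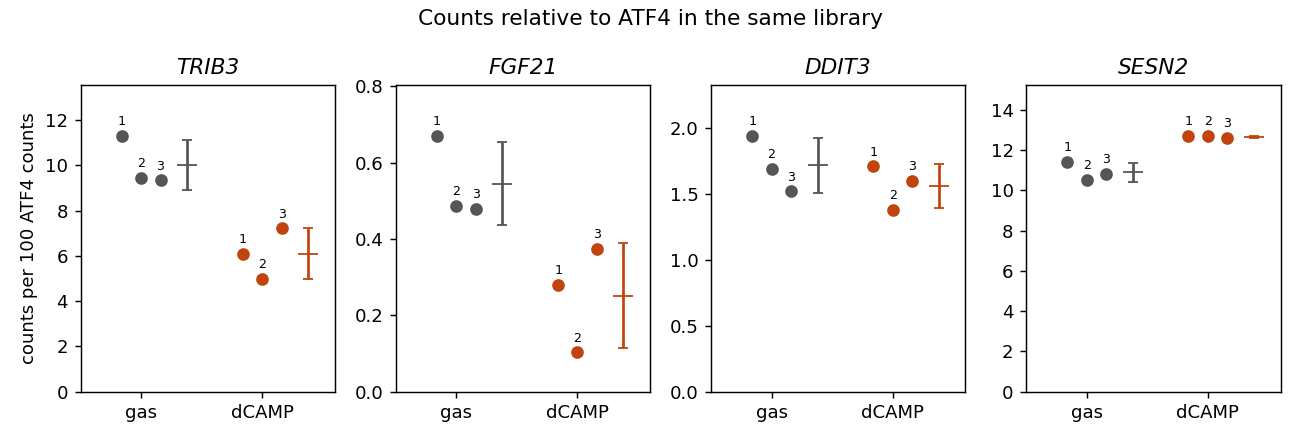
Counts of TRIB3, FGF21, DDIT3 and SESN2 per 100 counts of ATF4 in the same library, with 1 numbered point for each of the 3 gas and 3 dCAMP libraries and the group mean and SD beside them. The dCAMP points of TRIB3 and FGF21 lie below all gas points, those of SESN2 lie above, and those of DDIT3 overlap.

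Compared per length, as FPKM, the members covered a wide range of levels. ATF4 stood far above the rest at 365 ± 41.2 FPKM in gas and 245 ± 33.4 FPKM in dCAMP (SD, n = 3 each), higher than 98.5% of all tested genes. In gas, TRIB3 followed at 27 ± 5.94 FPKM and SESN2 at 15.9 ± 2.39 FPKM, and no TRIB3 library reached down to a SESN2 library. SESN2, CEBPB (12.4 ± 3.67), CEBPG (10.5 ± 2.54) and DDIT3 (9.78 ± 2.32 FPKM) were neighbours whose libraries overlapped from one to the next. ATF3 at 6.59 ± 0.874 FPKM, ATF5 at 3.13 ± 0.848 FPKM and FGF21 at 1.49 ± 0.468 FPKM followed, each with all of its gas libraries below those of the gene before. In dCAMP the order after ATF4 was different: CEBPG (12.4 ± 0.517), SESN2 (12.3 ± 1.66) and TRIB3 (11.1 ± 3.39 FPKM) overlapped one another, so that TRIB3 no longer stood apart from them. CEBPB (8.58 ± 0.686), ATF3 (7.95 ± 3.42) and DDIT3 (5.97 ± 1.33 FPKM) overlapped in turn, and ATF5 (2.34 ± 0.221) and FGF21 (0.475 ± 0.3 FPKM) were the lowest.

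The transcript table showed where the counts of a member came from. For ATF3, the main transcript of 1873 bases held 660, 714 and 617 counts in gas and 891, 390 and 612 in dCAMP. A longer ATF3 transcript of 2595 bases held 80, 47 and 50 counts in gas and 385, 20 and 87 in dCAMP, which is 30.2% of the gene's counts in dCAMP library 1 and between 4.07 and 12.4% in the other libraries. Another form, of 2541 bases, held 82 counts in dCAMP library 2, or 16.7% of the gene's counts there, and 0 in the other libraries. The main form and the form of 2595 bases were both highest in dCAMP library 1. For CEBPG, the form of 3692 bases took 23.4, 51.8 and 38.7% of the counts in gas and 24.5, 12.9 and 51.8% in dCAMP, a share that varied as widely within a group as between groups. TRIB3 counts lay mainly on a form of 1979 bases, with 92.6 to 95.3% in gas and 86 to 96.2% in dCAMP, so both groups used mainly the same form. FGF21 counts all came from a form of 1949 bases, and ATF4, CEBPB and SESN2 each had 1 annotated transcript. Transcript counts were derived by the authors' software from shared reads, and the split between forms of one gene is an estimate.

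The genes whose pattern over the 6 libraries was most like a member's were found by the root mean square difference of log2 CPM after centring each gene on its own mean. For ATF4, whose own deviation by this measure was 0.321, they were DDIT4 (0.0409), AP5B1 (0.0424) and CARS (0.0502). DDIT4, an inhibitor of mTORC1, was 131, 118 and 102 CPM in gas and 84.3, 64.6 and 90.4 CPM in dCAMP, following the order of the libraries for ATF4. For DDIT3 they were SLC6A9 (0.084), DDIT4 (0.107) and NFIL3 (0.107), beside its own deviation of 0.419. TRIB3 and FGF21 were each other's nearest gene among all tested (0.149), followed for both by the amino acid transporters SLC1A4 and SLC7A5, at 0.241 and 0.27 from TRIB3. For ATF3 they were CYR61 (0.104), SGPP2 (0.114) and GABRP (0.125), beside its own deviation of 0.393. CYR61, a secreted matricellular protein, was 137, 107 and 91.7 CPM in gas and 192, 96.9 and 120 CPM in dCAMP, and was thus also highest in dCAMP library 1. For SESN2 they were LDHD (0.0255), PCGF2 (0.0333) and PCOLCE (0.0515). For CEBPB they were LOC100684360 (0.0505), the ribosomal protein gene RPL37 (0.0545) and RAB24 (0.058). For ATF5 they were LOC106560188 (0.0486), FAAP20 (0.0516) and MIER2 (0.0542), and for CEBPG LOC106559418 (0.0427), ZFHX3 (0.0523) and HHEX (0.0567). These likenesses describe 6 libraries that share normalization and the same gas gradient.

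Other genes of the pathway were examined by lists, of which 71 of 75 genes that are not members were tested. In edgeR's quasi-likelihood test 12 of them were lower and 5 higher at an unadjusted p under 0.05, where 13.9% and 6.81% of all tested genes were, and none had an adjusted p under 0.05. Upstream, 10 kinases, relays and regulators of signaling to eIF2 were listed, among them the inhibitors IMPACT and DNAJC3. Of the 10, 8 had a higher mean in dCAMP and 2 a lower one. The median log2 fold change was 0.39 beside 0.03 over all tested genes, and it mixes activators with inhibitors. EIF2AK3, known as PERK, the kinase of the endoplasmic reticulum, was 57.2, 76.5 and 92.2 CPM in gas and 114, 109 and 121 CPM in dCAMP, above in every library (log2 fold change 0.60, SE 0.18, edgeR adjusted p = 0.221). DNAJC3, an inhibitor of these kinases, was 46.3, 63 and 90.3 CPM in gas and 94.9, 106 and 101 CPM in dCAMP (0.59, SE 0.24, edgeR adjusted p = 0.238). The largest log2 fold changes of the list belonged to IMPACT (0.98, SE 0.60) and EIF2AK2 (0.97, SE 0.67), both with a wide spread within gas. EIF2AK2, the kinase of double-stranded RNA, was 2.92, 14 and 25.8 CPM in gas libraries 1, 2 and 3 and 26.2, 27.7 and 30.1 CPM in dCAMP. EIF2AK1 (0.18, SE 0.20) and EIF2AK4 (0.11, SE 0.09) had overlapping groups. DELE1, the mitochondrial relay to EIF2AK1, had the lowest log2 fold change of the list at -0.38 (SE 0.13, edgeR adjusted p = 0.224), and GCN1, which activates EIF2AK4, was next at -0.23 (SE 0.09, edgeR adjusted p = 0.229).

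The 10 subunits and relatives of eIF2 and its exchange factor eIF2B were spread around 0, with 4 higher, 6 lower and a median log2 fold change of -0.08. EIF2D had the lowest log2 fold change, at 85.3, 82.8 and 76.1 CPM in gas and 63.7, 63.3 and 64.2 CPM in dCAMP (-0.35, SE 0.09, edgeR adjusted p = 0.221). EIF2B4 was next at -0.30 (SE 0.12), while EIF2S1 and EIF2S3, subunits of eIF2 itself, were both at 0.34 with overlapping groups. Of the 5 genes of the phosphatase that reverses the response, none had an unadjusted p under 0.05. By that rule 13.9% of all tested genes were lower and 6.81% higher. PPP1R15A, the stress-induced subunit known as GADD34, was 31.9, 25.6 and 20.5 CPM in gas and 29.6, 16.5 and 21.5 CPM in dCAMP, with overlapping groups (-0.21, SE 0.26). The catalytic subunits PPP1CB and PPP1CC were at 0.60 (SE 0.38) and 0.40 (SE 0.24), and PPP1CA was at -0.23 (SE 0.11). PPP1CB was 46.3, 118 and 144 CPM in gas and 153, 157 and 156 CPM in dCAMP, with its widest gap inside the gas group. Among the 12 tested other ATF and C/EBP factors 4 were higher and 8 lower, with a median of -0.07. NFIL3, a repressor of the same bZIP class, was lower in every dCAMP library, at 31.1, 26.7 and 25.9 CPM in gas and 18.8, 13.5 and 20.3 CPM in dCAMP (-0.67, SE 0.18, edgeR adjusted p = 0.221). BATF was next at -0.62 (SE 0.31), at 1.92, 1.79 and 0.886 CPM in gas and 1.1, 0.933 and 0.907 CPM in dCAMP. ATF2 (0.48, SE 0.23) and ATF1 (0.44, SE 0.20) were the highest of the list, both with overlapping groups. CEBPE was at 0 counts. The 6 tested sensors of the parallel unfolded protein response had a median of -0.07. None of them had an unadjusted p under 0.05, beside the same 13.9% and 6.81% of all tested genes. ATF6B, a membrane-bound factor of this response, was lowest at -0.27 (SE 0.11), and MBTPS2, a protease that releases ATF6, was highest at 0.35 (SE 0.26). XBP1, the factor spliced by the sensor ERN1, was at -0.19 (SE 0.13) with overlapping groups, and ERN2 was at 0 counts.

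Of 20 other genes that ATF4 is known to induce, 15 had a lower and 5 a higher mean in dCAMP, with a median log2 fold change of -0.22. At an unadjusted p under 0.05, 6 of them were lower and none higher, beside the 13.9% and 6.81% of all tested genes. PCK2, the mitochondrial PEP carboxykinase, was 208, 170 and 148 CPM in gas and 106, 89 and 110 CPM in dCAMP (-0.78, SE 0.15, edgeR adjusted p = 0.221). STC2, a secreted stanniocalcin, was 5.75, 4.52 and 5.47 CPM in gas and 3.17, 2.78 and 3.45 CPM in dCAMP (-0.73, SE 0.15, edgeR adjusted p = 0.221). For both genes every dCAMP library lay below every gas library, as for 20.9% of all tested genes. The others of the 6 were DDIT4 (-0.55), PHGDH of serine synthesis (-0.52), JDP2 (-0.46) and the amino acid transporter chain SLC3A2 (-0.39). ASNS, asparagine synthetase, was at -0.26 (SE 0.18) with overlapping groups. Other known targets had a higher mean in dCAMP. ERO1A, an oxidase of the endoplasmic reticulum, was 12.2, 38.8 and 57.4 CPM in gas and 53.7, 59.7 and 53.8 CPM in dCAMP (0.62, SE 0.50). XPOT, an exporter of tRNA, was at 0.42 (SE 0.38) with overlapping groups. SLC7A11, the cystine transporter, was 53.5, 63.4 and 160 CPM in gas and 118, 103 and 141 CPM in dCAMP (0.39, SE 0.42). Of 7 tested genes listed here as induced by DDIT3, 3 were higher and 4 lower, with a median of -0.21. They include the member TRIB3. CA6, a secreted carbonic anhydrase, was at -0.54 (SE 0.35) but under 1 CPM in every library. DOHH, an enzyme of hypusine formation, was lower in every dCAMP library at -0.52 (SE 0.16, edgeR adjusted p = 0.221), whereas the cell death genes BBC3 and BCL2L11 were at 0.00 (SE 0.17) and 0.02 (SE 0.12). TNFRSF10B was not found in the gene table.

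**Figure D5:**
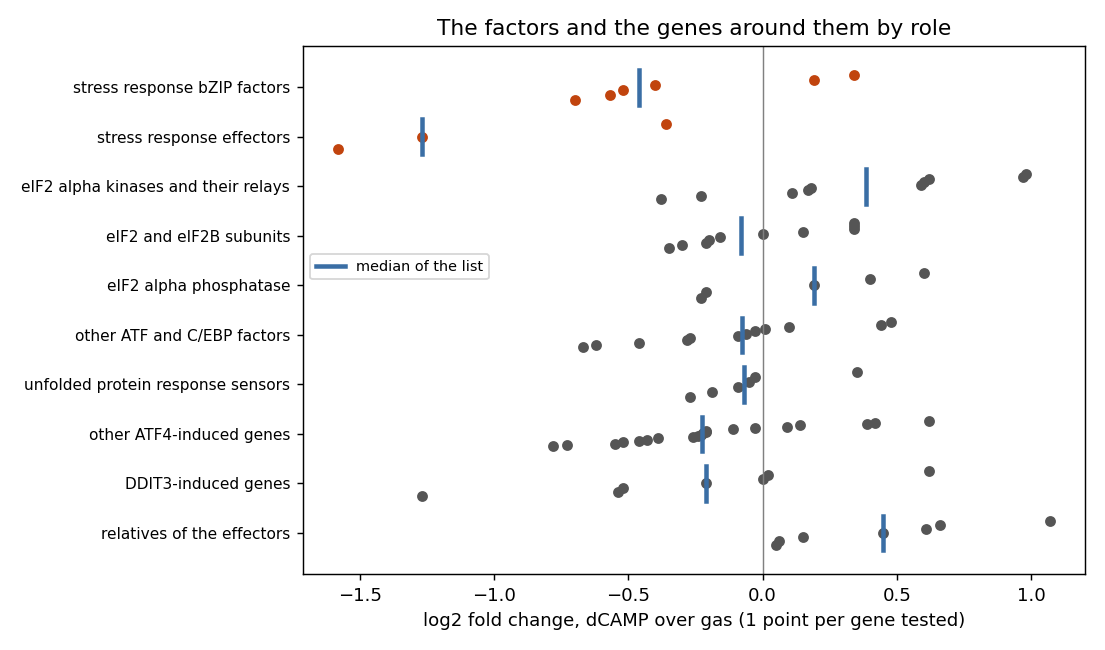
Log2 fold change of dCAMP over gas for the tested genes of each list, with the members in red; each point is 1 gene and the blue bar is the list median. The effectors lie lowest, with a median of -1.27, and the other ATF4-induced genes have a median of -0.22. The list of kinases and relays, which includes the inhibitors IMPACT and DNAJC3, has a median of 0.39. The list of the effectors' relatives, which includes KLB and FGFR1, has a median of 0.45.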

How the data were processed

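CPEK cells treated for 30 s with gas (3 libraries) or with CAMP (3 libraries) were compared. The authors checked reads with FastQC 0.11.7, trimmed them with Trimmomatic 0.38, mapped them to CanFam3.1 with HISAT2 2.1.0 and summarized transcripts with StringTie 2.1.3b. For each gene and transcript the authors deposited raw counts as whole numbers, and FPKM, which scales for length and mapped reads. Deposited TPM columns were not used. The annotation release and the counting of overlapping genes are not given in the sources used here.

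Counts were analysed with R 4.3.3 and edgeR 4.0.16, using TMM normalization, filterByExpr (14708 genes kept), a prior count of 2 and quasi-likelihood tests between the groups, adjusted by the Benjamini-Hochberg method. DESeq2 1.42.0, voom with sample quality weights (limma 3.58.1), other filters, log2 FPKM, a length correction and leaving out each library were tried as alternatives. Steps were tested on simulated data. A RefSeq gene table (UU_Cfam_GSD_1.0), used for names only, held 30915 of the 35993 gene identifiers. DELE1 was matched by its gene identifier. Intervals are not given, and errors are standard deviations over libraries or standard errors of the fit. A count of 0 allows up to 3 counts.

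The members and lists were chosen with earlier results of these data known. The genes named are the members, the 2 largest log2 fold changes in each direction of each list, the 3 genes most like each member (pseudocount 0.5 CPM) and genes at 0. EIF2AK1, EIF2AK3, EIF2AK4, DNAJC3, JDP2, PHGDH, SLC3A2, SLC7A11, ASNS, DOHH, BBC3, CHAC2, TRIB1, TRIB2, KLB, FGFR1, KRT10 and VWF were named after their values were seen.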

Additional observations from a re-analysis of the deposited data

How the results depend on the processing

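The direction of 8 of the 9 members was kept under all 17 alternatives, and ATF3 changed sign in 1, at -0.09 without dCAMP library 1. The log2 fold change ran from -0.68 to -0.49 for ATF4, from -0.88 to -0.54 for DDIT3, from -1.53 to -1.09 for TRIB3 and from -2.07 to -0.76 for FGF21, whose smallest value came with log2(FPKM + 1), which shrinks low levels. Members lower at an unadjusted p under 0.05 numbered 4 (13.9% of all tested genes), 6 with DESeq2 (10.6%) or with no filter on low counts (10.5%), 5 with RLE factors (13.9%), with at least 10 counts in every library (15.4%) or with the length correction (15.2%), and 7 with voom (30.4%). Leaving out 1 library gave 3 to 7, the 7 without gas library 3 (25.5%) and the 3 without dCAMP library 2 (6.57%). Members 2-fold lower numbered 2, where 0.0294 to 0.721% of all tested genes were, and 1 with log2(FPKM + 1), where 0.0068% were. No member was 2-fold higher in any setting, where 0.63 to 9.84% of all tested genes were. Members with an adjusted p under 0.05 numbered 0 (0% of all tested genes). There were 2 with DESeq2, both lower (1.98%), and 1 with DESeq2 at 1 count in every library, also lower (0.75%). With voom there were 8, of which 7 were lower (28.2%) and 1 higher (32.6%). Leaving out 1 library gave 0 to 6. The 6 came without gas library 3, of which 5 were lower (18.1%) and 1 higher (15%). A count leaving out each library, added after seeing the data, found 5 to 7 members with all dCAMP below all gas libraries. Where it found 5, 22.4 to 24.7% of all tested genes were below. The 7 came without gas library 3, where 32.6% of all tested genes were below, and CEBPG was then above, as were 35.9%.

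Over all genes, those with an adjusted p under 0.05 numbered 0, 301 with DESeq2, 161 with DESeq2 at 1 count in every library, 8944 with voom, 3 with log2(FPKM + 0.1), and 0 to 4953 leaving out 1 library, with 4953 without gas library 3. Genes 2-fold lower numbered 20, 61 with DESeq2, 65 with no filter on low counts, 4 with at least 10 counts in every library, 106 with voom, 1 with log2(FPKM + 1), and 18 to 50 leaving out 1 library, with 50 without gas library 3. In the pathway lists, genes with an adjusted p under 0.05 numbered 0 (0% of all tested genes). With DESeq2 there were 6, where 1.98% of all tested genes were lower and 0.611% higher. With DESeq2 at 1 count in every library there were 4 (0.75% lower and 0.495% higher). With voom there were 47 (28.2% lower and 32.6% higher). Leaving out 1 library gave 0 to 27, the 27 without gas library 3 (18.1% lower and 15% higher). Lower genes at an unadjusted p under 0.05 numbered 12 (13.9% of all tested genes), 30 with voom (30.4%) and 7 to 22 leaving out 1 library (4.7 to 25.5%). Higher genes numbered 5 (6.81%), 22 with voom (34.5%) and 2 to 13 leaving out 1 library (2.16 to 23.8%). The cause of these shifts was not tested.

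No label says whether replicate numbers pair the samples. The deviations of same-numbered libraries from their group means correlated at 0.13, 0.0237 and 0.0479, and those of differently numbered libraries at -0.139 to 0.0873. With 3 libraries in a group these values cannot decide whether the samples were paired. With the replicate block 4 members were lower at an unadjusted p under 0.05 (9.31% of all tested genes), 2 were 2-fold lower (0.122%), and the pathway lists had 9 lower genes. With the length correction and the block 5 members were lower (10.1%). With 3 libraries in a group, gas libraries that differ widely and FGF21 at 15 counts in 1 library, small differences were not detectable.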

Other observations

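Relatives of the effector genes were listed together with KLB and FGFR1, a co-receptor and a receptor of FGF21. All 7 tested genes of this list had a higher mean in dCAMP, as had 7706 of all 14708 tested genes, and their median log2 fold change was 0.45. Of the 7, 3 had an unadjusted p under 0.05 in edgeR's quasi-likelihood test, where 6.81% of all tested genes were higher. TRIB1 (0.15), TRIB2 (0.05), KLB (0.45) and FGFR1 (0.06) had overlapping groups, and KLB held only 6 to 17 counts. SESN3, a sestrin like SESN2 but induced by FOXO factors, was 20.5, 36.8 and 60.6 CPM in gas libraries 1, 2 and 3 and 83.5, 75.7 and 89.4 CPM in dCAMP, a log2 fold change of 1.07 (SE 0.37, edgeR adjusted p = 0.223). SESN1, the sestrin induced by p53, was 6.29, 9.33 and 12.2 CPM in gas and 14.8, 14.7 and 14.5 CPM in dCAMP (0.66, SE 0.24, edgeR adjusted p = 0.226). CHAC2, which like CHAC1 degrades glutathione, was 5.18, 5.13 and 6.26 CPM in gas and 8.44, 9.17 and 7.79 CPM in dCAMP (0.61, SE 0.14, edgeR adjusted p = 0.221). For these 3 genes every dCAMP library lay above every gas library, as for 19% of all tested genes, whereas SESN2 lay below. In SESN3 and SESN1 the gas libraries were ordered 1, 2, 3 upward, the reverse of their order in ATF4, and the part of the spread within gas was not tested. FGF19 was not tested and FGF23 was at 0 counts.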
